A study of Mus musculus with 44 samples.

Results

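T cell receptor repertoires were compared between B16 tumours from mice given AC484 and B16 tumours from mice labelled Vehicle. The tumours were taken by their treatment label, 15 AC484 and 14 Vehicle of 44 in the series, and every complementarity-determining region 3 (CDR3) listed for them was used, 117159 of 170818 entries. All mice were of WT genotype and of strain C57BL/6 by the labels, C57BL/6J by the study's methods, and carried subcutaneous tumours of B16F10, a mouse melanoma cell line, from which 100 ug of tissue was collected on day 12. AC484 inhibits PTPN2 and PTPN1, a pair of phosphatases that restrain cytokine and T cell receptor signalling. The Vehicle label stands beside the names No Tx in the deposited table and no treatment in the study's methods, so the dosing of these controls is not settled, and the labels give neither the dose of AC484 nor the age of the mice. The 15 remaining tumours came from mice given aPD-1, an antibody that blocks an inhibitory receptor on T cells, and enter here only in comparisons within an index primer set. Only T cell receptor transcripts were measured, so the labelled tissue could not be checked against marker genes, and fewer T cells cannot be told apart from less receptor RNA per T cell.

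A T cell receptor pairs an alpha chain (TRA) with a beta chain (TRB), each assembled in the thymus by joining V and J gene segments, with a D segment between them in the beta chain. The CDR3 spans that junction and makes much of the contact with the peptide. A T cell and its progeny, a clone, usually share 1 CDR3 per chain. A recruited but undivided T cell would add a CDR3 that is rare in the tumour, and a T cell that proliferated there an expanded one. Read counts alone do not show which of these happened.

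Depth differed between the groups before any comparison. TRB reads per tumour ranged from 39628 to 430457 (median 165421) with AC484 and from 6415 to 201469 (median 58000.5) with Vehicle, and TRA reads from 18508 to 315679 and from 1466 to 24129. All tumours were therefore brought to 6415 TRB reads and 1466 TRA reads, the smallest totals, as the expected value over draws without replacement. TRA took a larger part of the reads with AC484, 29.98% ± 5.52 (SD, n = 15), than with Vehicle, 16.2% ± 6.00 (SD, n = 14). The libraries were amplified with 4 index primer sets. Vehicle tumours 1 to 12 carried set 1 and Vehicle tumours 13 and 14 set 2, AC484 tumours 1 to 7 carried set 3 and AC484 tumours 8 to 15 set 4, so no set held both groups and treatment cannot be told apart from primer set by a direct comparison. The aPD-1 tumours carried sets 2 (10 tumours) and 3 (5 tumours), which allowed AC484 minus aPD-1 in set 3 to be added to aPD-1 minus Vehicle in set 2. The TRA part of the reads moved with the set: in aPD-1 tumours it averaged 6.61% in set 2 and 30.8% in set 3, and in Vehicle tumours 4.49% in set 2 and 18.1% in set 1. This sum assumes that a treatment difference does not depend on the set, and its lower end rests on 2 Vehicle tumours. Reads carry no molecular identifiers, so a CDR3 of 1 read is not necessarily 1 cell. The p-values of permutation tests measure the spread between tumours, and those of edgeR, used for J genes, cannot fall under the p of Poisson error.

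The largest TRB clones of each group are shown first because they show what an expanded CDR3 looked like. They are the top clones of the 5 tumours in which the top clone took the most TRB reads. With AC484 these read, from the conserved cysteine to the conserved phenylalanine:
AC484 tumour 4: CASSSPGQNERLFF
AC484 tumour 1: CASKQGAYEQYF
AC484 tumour 11: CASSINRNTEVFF
AC484 tumour 14: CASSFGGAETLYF
AC484 tumour 3: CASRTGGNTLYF

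The clone of AC484 tumour 4 took 51.4% of that tumour's TRB reads and ended in Trbj1-4. The clones of AC484 tumours 1 (Trbj2-7), 11 (Trbj1-1), 14 (Trbj2-3) and 3 (Trbj1-3) took 25.7%, 21.3%, 19.4% and 18.3%. By the longest shared ending these 5 clones were assigned to 5 different J genes. Trbj1-3 and Trbj2-4 share their last residues, so the call for AC484 tumour 3 rests on a glycine that a D segment can also encode. Each was also listed in 6 to 13 other tumours of the 2 groups, at no more than 0.313% of their TRB reads. Whether these low listings were carried over from other libraries was not tested, so they are not read as shared clones.

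The corresponding Vehicle clones of under 15 residues were:
Vehicle tumour 3: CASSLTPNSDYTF
Vehicle tumour 14: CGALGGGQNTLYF
Vehicle tumour 13: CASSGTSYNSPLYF

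The clone of Vehicle tumour 3 took 37.5% of TRB reads (Trbj1-2), that of Vehicle tumour 14 30.9% (Trbj2-4) and that of Vehicle tumour 13 28.2% (Trbj1-6). The other two had 15 residues and took 34.4% in Vehicle tumour 1 (Trbj1-6) and 31.3% in Vehicle tumour 12 (Trbj1-1). The clone of Vehicle tumour 12 reached 6.63% in another tumour, whereas the other 4 stayed at or below 0.0914% elsewhere. For these listings too, carry-over from other libraries was not tested. Across all tumours the top clone took from 5.33% to 51.4% (median 15.1%) of TRB reads with AC484 and from 12.0% to 37.5% (median 20.3%) with Vehicle, so the ranges overlapped. CDR3s beyond the 100 largest took from 9.59% to 44.7% (median 21.4%) with AC484 and from 0.262% to 25.9% (median 11.8%) with Vehicle, at deposited depth and without a test.

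At the other end of the spectrum were CDR3s that stayed under 0.1% of TRB reads in every tumour of a group yet recurred in many of them. The 3 that recurred in the most tumours of each group were:
AC484: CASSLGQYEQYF
AC484: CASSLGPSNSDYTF
AC484: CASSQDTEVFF
Vehicle: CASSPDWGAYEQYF
Vehicle: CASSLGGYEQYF
Vehicle: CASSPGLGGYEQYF

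The first of these, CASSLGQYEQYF, was listed in 11 AC484 tumours and 3 Vehicle tumours. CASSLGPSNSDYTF was listed in 10 AC484 tumours and 0 Vehicle tumours, and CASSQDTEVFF in 10 and 3. Of the Vehicle set, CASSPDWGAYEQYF was listed in 5 Vehicle tumours and 1 AC484 tumour, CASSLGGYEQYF in 4 and 7, and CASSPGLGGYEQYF in 4 and 6. Being listed depends on depth, which was larger with AC484, and each CDR3 was picked for recurring in its own group. The counts are therefore a description, and carry-over from other libraries was not tested for them. The aPD-1 tumours were not searched for these CDR3s. All 3 Vehicle sequences and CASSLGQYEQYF ended in Trbj2-7, the J gene used most in both groups.

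The first question was in which size class the repertoires differed. AC484 tumours held more TRB CDR3s of 1 read than Vehicle tumours. Their numbers ranged from 430 to 1541 (median 610) with AC484 and from 22.2 to 518 (median 122) with Vehicle. The groups overlapped in part: 10 of 15 AC484 tumours lay above every Vehicle tumour, and 12 of 14 Vehicle tumours lay below every AC484 tumour. The means were 671 ± 272 (SD, n = 15) and 184 ± 164 (SD, n = 14), a 3.64-fold ratio and a difference of 487 CDR3s with a standard error of 82.8 (permutation test, two-sided, p = 1e-05, the smallest that 100000 resamples can give; Benjamini-Hochberg adjusted p = 0.0002 over 20 values). AC484 tumour 10 stood highest at 1541, and without it the difference was 425 CDR3s. At 30300 reads, without the 5 Vehicle tumours that held under 20000 TRB reads, the difference was 1103 CDR3s. Equal read depth does not equalise the number of T cells or receptor transcripts behind a library, and their part in the difference was not tested. Library concentration averaged 6.88 nM ± 3.00 with AC484 (SD, n = 15) and 4.485 nM ± 1.84 with Vehicle (SD, n = 14).

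The difference in CDR3s of 1 read was also present within primer sets. In set 3 the 7 AC484 tumours ranged from 430 to 880 and the 5 aPD-1 tumours from 141 to 483, a mean difference of 273. In set 2 the 10 aPD-1 tumours ranged from 233 to 656 and the 2 Vehicle tumours were at 61.5 and 272, a mean difference of 299. Their sum was 571 CDR3s (exact permutation within sets, p = 0.00029, adjusted p = 0.0057). Within AC484, set 4 exceeded set 3 by 146 CDR3s, less than the spread of either set (exact permutation p = 0.37, adjusted p = 0.97), and within Vehicle set 2 and set 1 had means of 167 and 187 (exact permutation p = 0.89).

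**Figure D1:**
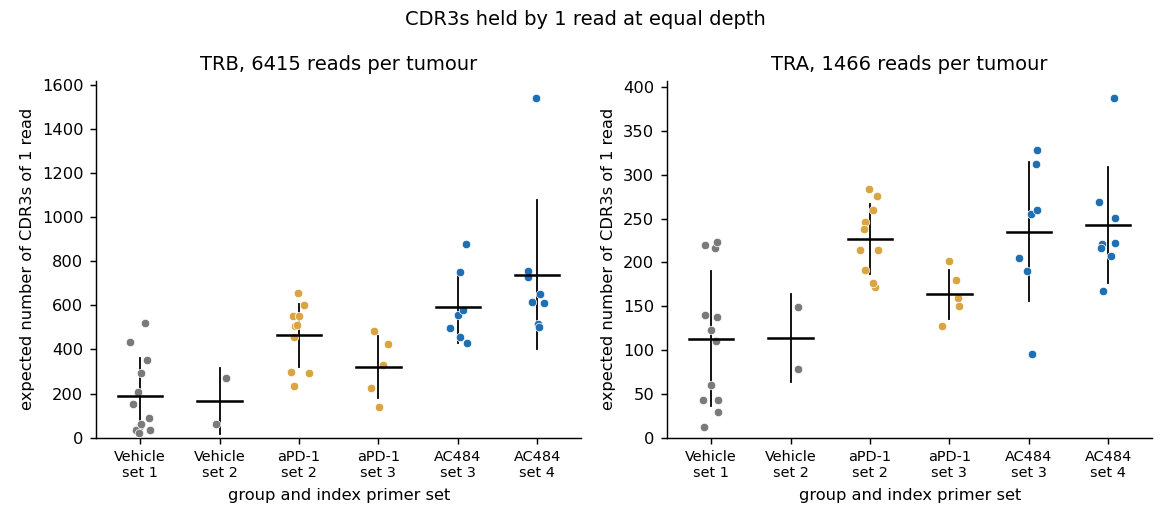
Expected number of CDR3s of 1 read in each tumour at equal depth, TRB on the left and TRA on the right, by group and index primer set; points are tumours, horizontal bars are means and vertical lines are 1 SD. In set 3 the AC484 tumours lie between 430 and 880 for TRB and the aPD-1 tumours between 141 and 483, and in both Vehicle sets the TRB means are under 190.

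The alpha chain gave the same direction. TRA CDR3s of 1 read ranged from 95.0 to 388 (median 223) with AC484 and from 11.7 to 223 (median 116) with Vehicle, and 14 of 15 AC484 tumours lay above the Vehicle median. The exception was AC484 tumour 4, the tumour with the 51.4% clone. The means were 239 ± 70.1 (SD, n = 15) and 113 ± 72.2 (SD, n = 14), a 2.11-fold ratio and a difference of 126 CDR3s (permutation p = 0.00011, adjusted p = 0.0011). The sum within sets was 185 CDR3s (exact permutation p = 0.0014, adjusted p = 0.014). This call was lost when counts were scaled to the equal total and rounded instead of drawn, where the difference was 0.233 CDR3s (adjusted p = 0.99). The TRB call was kept there, at 324 CDR3s (adjusted p = 0.0064).

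No class of larger TRB clones passed the adjustment at this depth. CDR3s of 2 reads to under 0.1% of reads, that is up to 6 reads, numbered from 118 to 480 (median 282) with AC484 and from 18.4 to 415 (median 182) with Vehicle. Their mean difference of 103 did not pass the adjustment (permutation p = 0.02, adjusted p = 0.078), with 12 of 15 AC484 tumours above the Vehicle median. Within primer sets the sum was 141 and did not pass (exact permutation p = 0.074, adjusted p = 0.3). AC484 minus aPD-1 in set 3 gave 18.5 of it and aPD-1 minus Vehicle in set 2 gave 123. The difference between the groups passed without Vehicle tumour 7 (121, adjusted p = 0.032) and without AC484 tumour 4 (114, adjusted p = 0.047). It also passed with the 5 Vehicle tumours under 20000 TRB reads left out and the others brought to 30300 reads, where the class reaches further in reads and the difference was 871 CDR3s (permutation test, adjusted p = 0.0002). CDR3s of 0.1% to under 1% numbered 65.2 ± 19.6 (SD, n = 15) and 69.9 ± 25.6 (SD, n = 14), with a difference between -21.7 and 12.4 at 2 standard errors (permutation p = 0.58). CDR3s of at least 1%, 65 reads or more, numbered 15.1 ± 2.90 (SD, n = 15) and 13.5 ± 5.37 (SD, n = 14), with 13 of 15 AC484 tumours above the Vehicle median and a difference between -1.58 and 4.89 at 2 standard errors (permutation p = 0.32).

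The share of TRB reads held by clones of at least 1% ranged from 35.3% to 77.8% (median 59.1%) with AC484 and from 54.6% to 84.3% (median 73.5%) with Vehicle. It was 10.9 percentage points lower on average with AC484, and 14 of 15 AC484 tumours lay below the Vehicle median, but the difference did not pass the adjustment (permutation p = 0.013, adjusted p = 0.066). Within primer sets the sum was -13.2 points and did not pass (exact permutation p = 0.15, adjusted p = 0.39). The lowest share belonged to AC484 tumour 10, which also held the most CDR3s of 1 read. With AC484 tumour 1 or 4 or Vehicle tumour 7, 8 or 13 left out the adjusted p fell to between 0.03 and 0.048, at differences from -12.3 to -11.8 points, and without the 5 tumours under 20000 TRB reads the difference was -14.3 points (permutation test, adjusted p = 0.018). The share held by clones of 0.1% to under 1% was 18.9% ± 5.61 (SD, n = 15) and 19.0% ± 6.68 (SD, n = 14), a difference of -0.146 points whose sign turned with several settings (permutation p = 0.95). TRA clones of at least 0.5% of reads, 8 reads or more, numbered 27.1 ± 6.95 (SD, n = 15) and 25.4 ± 8.59 (SD, n = 14), with a difference between -4.14 and 7.51 at 2 standard errors (permutation p = 0.56).

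**Figure D2:**
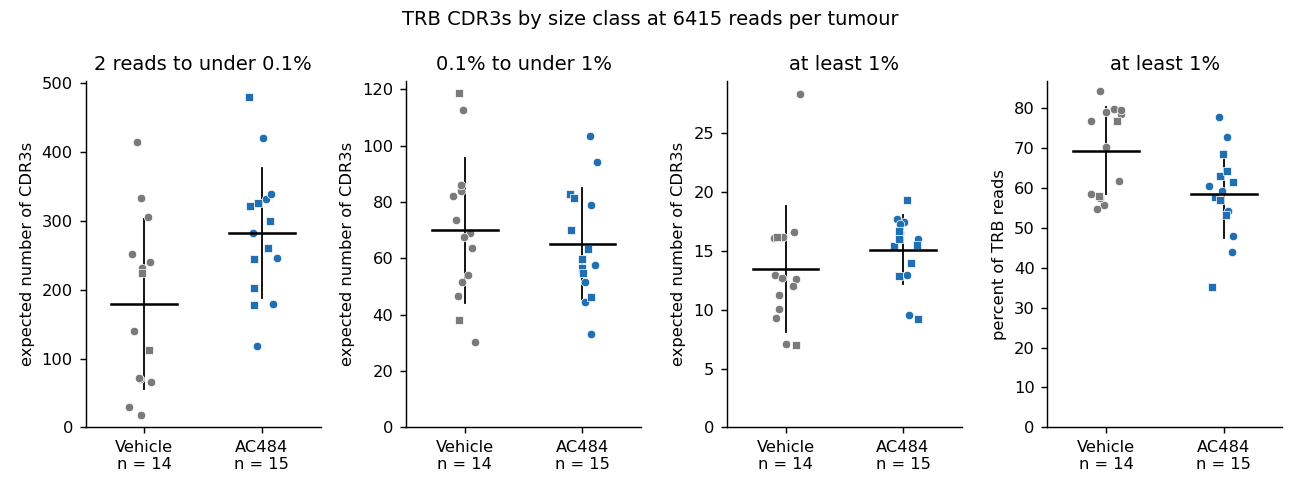
TRB CDR3s of 2 reads to under 0.1%, of 0.1% to under 1% and of at least 1% of reads (expected number per tumour), and the percent of TRB reads in clones of at least 1%, all at 6415 reads; circles are primer sets 1 and 3, squares sets 2 and 4, horizontal bars means and vertical lines 1 SD. The numbers of clones of at least 1% overlap, with means of 15.1 and 13.5, and the AC484 tumours extend to lower read shares, down to 35.3%.

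The second question was whether the rare or the expanded CDR3s differed in kind. Here rare means 1 read at equal depth, and expanded means at least 0.1% of TRB reads or 0.5% of TRA reads. Each distinct CDR3 weighed the same. Rare TRB CDR3s were 13.94 ± 0.0287 residues long with AC484 (SD, n = 15) and 13.94 ± 0.0995 with Vehicle (SD, n = 14), with a difference between -0.0461 and 0.0643 residues at 2 standard errors (permutation p = 0.75). Expanded TRB CDR3s were 13.92 ± 0.192 and 13.97 ± 0.117 residues long, with a difference between -0.167 and 0.0675 (permutation p = 0.41). For rare CDR3s the SD was larger with Vehicle, whose tumours held fewer of them, and the part of that number in the spread was not tested.

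Rare TRA CDR3s measured from 13.57 to 13.67 residues (median 13.62) with AC484 and from 13.41 to 13.71 (median 13.53) with Vehicle. All 15 AC484 tumours lay above the Vehicle median, but the difference of 0.0714 residues did not pass the adjustment (permutation p = 0.011, adjusted p = 0.066), and within primer sets the sum was -0.0602 residues (exact permutation p = 0.39). In the 2 Vehicle tumours of set 2 these CDR3s averaged 13.69 residues, against 13.53 in the 12 of set 1 (exact permutation p = 0.022, adjusted p = 0.44). The difference passed without Vehicle tumour 3 (adjusted p = 0.014), 7 (0.04), 13 (0.013) or 14 (0.028), or without AC484 tumour 4 (0.049). Expanded TRA CDR3s were 13.84 ± 0.287 and 13.64 ± 0.219 residues long (difference 0.197, permutation p = 0.049, adjusted p = 0.12).

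Within AC484 tumours the expanded TRA CDR3s were longer than the rare ones of the same tumour. The difference ranged from -0.199 to 0.907 residues (median 0.225), was above 0 in 11 of 15 tumours and averaged 0.218 (exact sign-flip permutation test, p = 0.0092, adjusted p = 0.037 over 8 tests). AC484 tumour 4 had the largest difference, and without it the mean was 0.169 (adjusted p = 0.073). With AC484 tumour 4, 5, 6, 8 or any of 10 to 15 left out the adjusted p rose to between 0.051 and 0.073. In Vehicle tumours the mean difference was 0.0930 residues, with 9 of 14 above 0 (exact sign-flip permutation test, p = 0.17). The difference between the groups, 0.125 residues, did not pass (permutation p = 0.22). Within primer sets the sum was 0.266 residues (exact permutation p = 0.31). AC484 minus aPD-1 in set 3 gave -0.0859 and aPD-1 minus Vehicle in set 2 gave 0.352. In set 3 the value was thus no larger with AC484 than with aPD-1.

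The middle of the TRB CDR3, after the first 4 residues and before the stretch equal to the germline J ending, is where most of the variable junction lies. Its net charge is the number of lysine and arginine residues minus that of aspartate and glutamate. Rare TRB CDR3s carried -0.159 ± 0.0253 with AC484 (SD, n = 15) and -0.202 ± 0.0738 with Vehicle (SD, n = 14), a difference of 0.0428 that did not pass the adjustment (permutation p = 0.043, adjusted p = 0.12). Expanded TRB CDR3s carried -0.237 ± 0.0847 and -0.208 ± 0.0875 (permutation p = 0.36).

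Expanded TRB CDR3s of AC484 tumours were more negative than the rare ones beside them. The difference ranged from -0.181 to 0.0692 (median -0.115), was below 0 in 12 of 15 tumours and averaged -0.0780 (exact sign-flip permutation test, p = 0.0031, adjusted p = 0.024). It stayed past the threshold with any 1 tumour left out (means from -0.0885 to -0.0706) but not with CDR3s weighted by reads (-0.0333) or with expanded meaning at least 1% (-0.107). In Vehicle tumours the difference ranged from -0.207 to 0.143, with 7 of 14 below 0 and a mean of -0.00579 (exact sign-flip permutation test, p = 0.84). The groups' difference of -0.0722 did not pass the adjustment (permutation p = 0.047, adjusted p = 0.12), and within primer sets the sum was -0.0733 (exact permutation p = 0.24). Of that sum, AC484 minus aPD-1 in set 3 gave -0.00597 and aPD-1 minus Vehicle in set 2 gave -0.0673. In set 3 the AC484 tumours thus lay near the aPD-1 tumours, and the trait was not particular to AC484 there.

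Hydropathy of the middle, on the Kyte-Doolittle scale where higher is more hydrophobic, was -0.775 ± 0.0300 for rare CDR3s with AC484 (SD, n = 15) and -0.742 ± 0.0626 with Vehicle (SD, n = 14; permutation p = 0.077). For expanded CDR3s it was -0.766 ± 0.149 and -0.751 ± 0.188 (permutation p = 0.81). Expanded and rare CDR3s did not differ past the threshold in either group (exact sign-flip permutation test, p = 0.83 and p = 0.85).

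**Figure D3:**
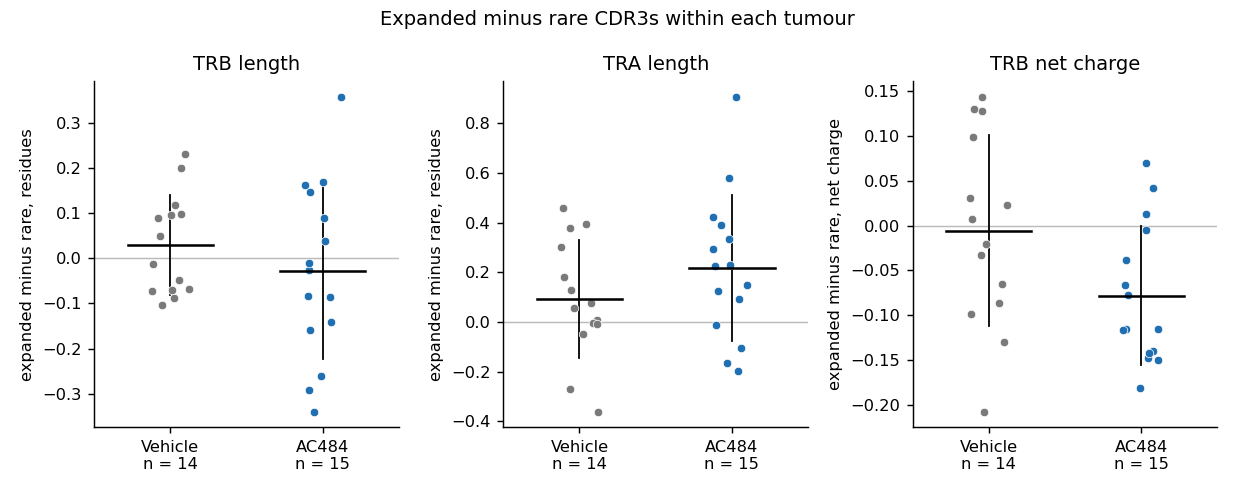
Expanded minus rare CDR3s of the same tumour in TRB length, TRA length (both in residues) and TRB net charge of the middle; points are tumours, horizontal bars means and vertical lines 1 SD, and the grey line is 0. For net charge 12 of 15 AC484 tumours lie below 0 and 7 of 14 Vehicle tumours do, and AC484 tumour 4 stands at 0.907 residues for TRA length.

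The 20 amino acids of the middle were compared one by one in rare and in expanded CDR3s of both chains, 80 permutation tests adjusted together. None passed between AC484 and Vehicle, 0% of the 20 in each of the 4 comparisons. The numbers at an unadjusted p under 0.05 were 4 for rare TRB, 4 for expanded TRB, 5 for rare TRA and 1 for expanded TRA CDR3s. The lowest p in rare TRB CDR3s belonged to glycine, which D segments encode in all reading frames and which took from 27.8% to 29.1% (median 28.3%) of middle residues with AC484 and from 28.3% to 29.6% (median 28.8%) with Vehicle (difference -0.566 points, adjusted p = 0.10 by permutation test). Tyrosine (1.19% and 0.973%, adjusted p = 0.23) and arginine (8.49% and 7.91%, adjusted p = 0.28) followed.

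In expanded TRB CDR3s the lowest p was that of proline, which took from 5.26% to 10.5% (median 6.83%) with AC484 and from 3.49% to 7.10% (median 5.62%) with Vehicle. Its difference was 1.28 points (permutation p = 0.0026, adjusted p = 0.10), while the sum within primer sets was -0.0980 points (exact permutation p = 0.93). Aspartate (10.1% and 8.98%) and glutamate (3.24% and 3.90%), both acidic, differed in opposite directions, each with an adjusted p of 0.28 by permutation test. In TRA the lowest p values were those of histidine, cysteine and valine for rare CDR3s (adjusted p = 0.23, 0.28 and 0.28 by permutation test) and of glutamate for expanded ones, at 16.1% ± 4.92 (SD, n = 15) and 10.9% ± 6.73 (SD, n = 14; permutation test, adjusted p = 0.28).

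Compared with the rare TRB CDR3s of the same tumours, the expanded ones of AC484 tumours differed in 6 of 20 residues (30%; exact sign-flip permutation tests, adjusted over 40). Proline and glutamine rose. Proline was 7.00% ± 1.37 of middle residues in expanded and 5.03% ± 0.216 in rare CDR3s, higher in 15 of 15 tumours (adjusted p = 0.0012). Glutamine was 6.42% ± 1.70 and 5.05% ± 0.222, higher in 13 of 15 (adjusted p = 0.011).

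Tryptophan, arginine, phenylalanine and cysteine fell in expanded CDR3s of AC484 tumours. Tryptophan, a large aromatic residue, was 2.82% ± 1.01 in expanded and 4.25% ± 0.296 in rare CDR3s, lower in 14 of 15 tumours (exact sign-flip permutation test, adjusted p = 0.0016). Arginine, which carries a positive charge, was 7.07% ± 1.54 and 8.49% ± 0.344, lower in 12 of 15. Phenylalanine was 1.29% ± 0.399 and 1.72% ± 0.170, lower in 13 of 15. Cysteine in the middle was mostly found in rare CDR3s of these tumours, with 0.0111% ± 0.0288 in expanded and 0.154% ± 0.0393 in rare ones, lower in 15 of 15. An unpaired cysteine in the junction is known to be disfavoured during thymic selection. Whether this bears on the contrast between rare and expanded CDR3s was not tested, and both cysteine shares are small.

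In Vehicle tumours 1 of 20 residues passed (5%), cysteine, at 0.0120% ± 0.0451 in expanded and 0.141% ± 0.155 in rare CDR3s. Proline was 5.72% ± 0.848 and 5.01% ± 0.633 there, higher in 11 of 14 (exact sign-flip permutation test, adjusted p = 0.11). With counts possibly carried over from other libraries left out, 7 of 20 residues passed in Vehicle, and with expanded meaning at least 1%, 4 of 20 did. The difference between the groups in expanded minus rare was tested over all 20 residues and 12 TRB J genes, and none passed. Proline (1.26 points, permutation p = 0.0072, adjusted p = 0.15) and tryptophan (-1.02 points, permutation p = 0.015, adjusted p = 0.16) came nearest, with 3 of 32 under an unadjusted 0.05.

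**Figure D4:**
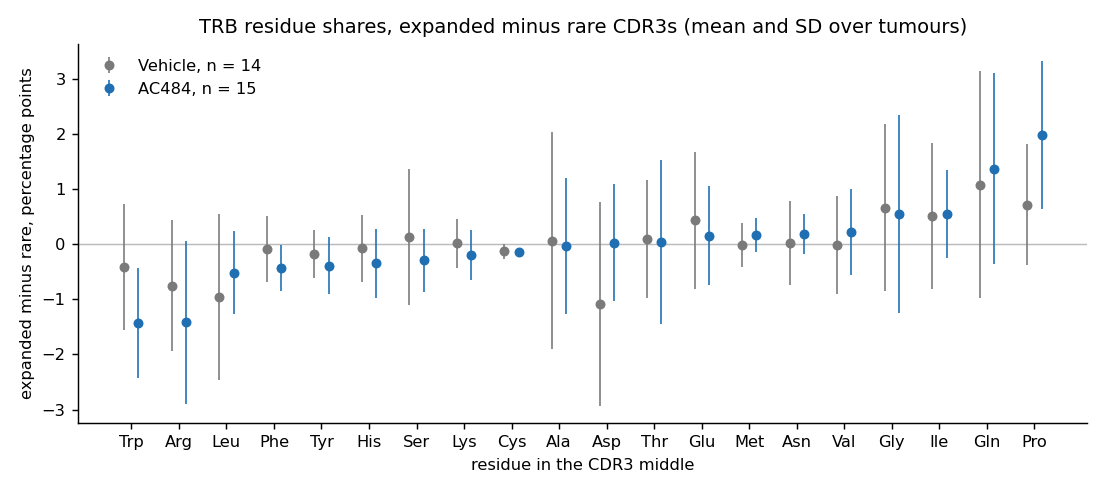
Share of each residue in the TRB CDR3 middle, expanded minus rare, in percentage points, as the mean over tumours with 1 SD, ordered by the AC484 mean. Proline and glutamine lie at the upper end in AC484 and tryptophan and arginine at the lower end, and the SDs of the groups overlap at every residue.

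The TRB locus holds 2 clusters of J genes on chromosome 6, from Trbj1-1 (chr6:41533864-41533911 in GRCm38, plus strand) to Trbj2-7 (chr6:41543810-41543856, plus strand). Each supplies the last residues of the CDR3. Among rare CDR3s, Trbj2-7 was used most, by 20.6% ± 1.16 with AC484 (SD, n = 15) and 20.5% ± 2.53 with Vehicle (SD, n = 14), followed by Trbj2-1 (13.9%) and Trbj2-5 (11.3%) with AC484 and by Trbj2-5 (12.5%) and Trbj2-1 (11.9%) with Vehicle. Trbj1-5 was used least, by 2.54% ± 0.310 and 2.60% ± 1.12. No gene passed edgeR's quasi-likelihood test (0 of 12, 0%; 0 at an unadjusted p under 0.05, and 0 by DESeq2 both adjusted and unadjusted).

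A permutation test of the shares themselves, added after seeing the data, passed 1 of 12 genes in rare CDR3s (8.33%). This was Trbj2-1 (chr6:41542754-41542803, plus strand), whose share ranged from 13.2% to 14.7% (median 13.8%) with AC484 and from 3.33% to 15.6% (median 12.6%) with Vehicle. Its mean was 1.98 points higher with AC484 (permutation test, adjusted p = 0.018), but the sum within primer sets was -0.831 points (exact permutation p = 0.25) and the log2 fold change by edgeR was 0.08 ± 0.05 (SE; adjusted p = 0.718). Each tumour weighed the same in the test of shares, though 1 Vehicle tumour held only 22.2 rare TRB CDR3s. Trbj2-2 (5.91% and 5.11%) and Trbj2-5 (11.3% and 12.5%) had an adjusted p of 0.15 each by permutation test. The Trbj1 genes and Trbj2-3, Trbj2-4 and Trbj2-7 differed by 1.10 points or less, with permutation p from 0.051 to 0.87.

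Among expanded TRB CDR3s no J gene passed edgeR's test (0 of 12, 0%; 2 at an unadjusted p under 0.05; 0 by DESeq2, 1 unadjusted) or the permutation test of shares (0%; 2 unadjusted). The 2 were Trbj1-1, at 13.8% ± 4.89 with AC484 (SD, n = 15) and 10.1% ± 3.90 with Vehicle (SD, n = 14; log2 fold change 0.35 ± 0.16 SE, edgeR adjusted p = 0.242), and Trbj2-4, at 7.26% ± 2.27 and 9.87% ± 2.75 (log2 fold change -0.44 ± 0.16 SE, edgeR adjusted p = 0.242). The remaining Trbj1 genes, Trbj1-2 to Trbj1-6, had log2 fold changes from -0.39 (Trbj1-3) to 0.17 (Trbj1-2). Trbj2-1, Trbj2-2, Trbj2-3, Trbj2-5 and Trbj2-7 had log2 fold changes from -0.21 (Trbj2-1) to 0.19 (Trbj2-7).

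Within AC484 tumours, expanded TRB CDR3s used Trbj2-1 less than rare ones. Its share was 9.23% ± 2.76 in expanded and 13.9% ± 0.424 in rare CDR3s, lower in 15 of 15 tumours (exact sign-flip permutation test, adjusted p = 0.0015; 1 of 12 genes, 8.33%). The gene no longer passed with expanded meaning at least 1%. Trbj1-1 had the next lowest p, at 13.8% and 9.86% (11 of 15 higher, exact sign-flip permutation test, adjusted p = 0.070). In Vehicle tumours Trbj2-1 stood at 11.0% ± 3.63 and 11.9% ± 2.94, lower in 7 of 14, and none of the 12 genes passed (0%; 1 unadjusted, Trbj2-4). The groups' difference in Trbj2-1 was -3.71 points (permutation p = 0.0091, adjusted p = 0.15 over 32).

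**Figure D5:**
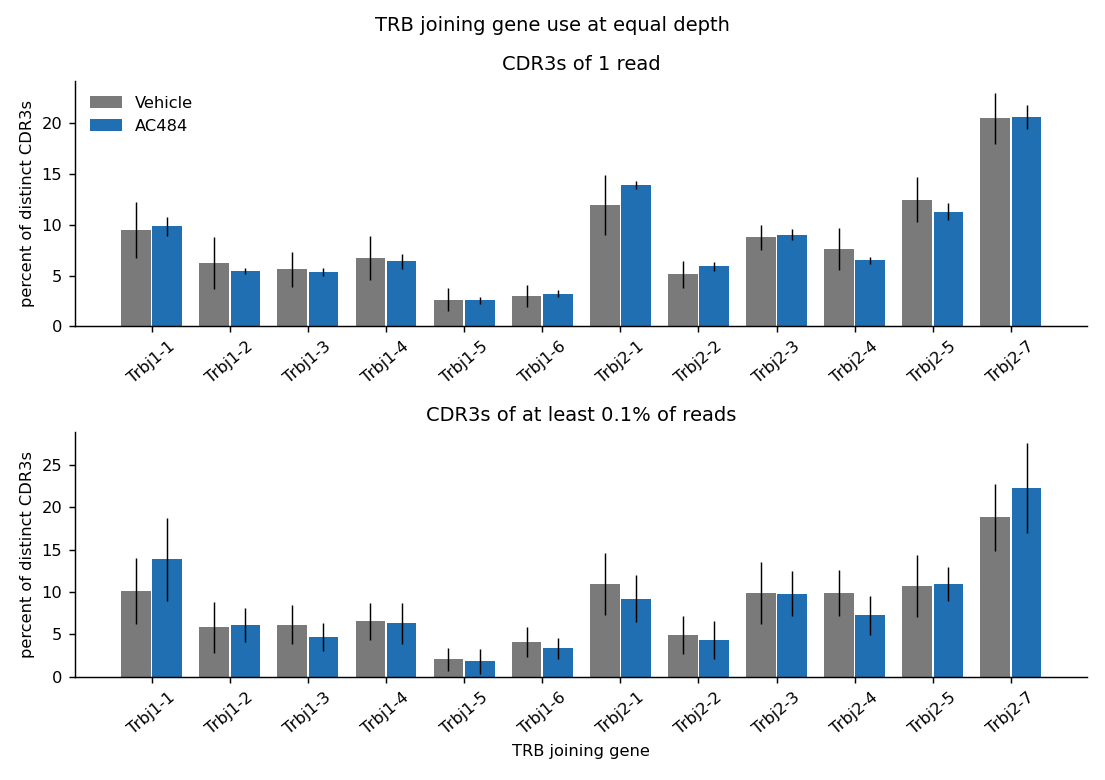
Percent of distinct TRB CDR3s that use each of the 12 TRB J genes, for CDR3s of 1 read (top) and of at least 0.1% of reads (bottom); bars are means over 14 Vehicle and 15 AC484 tumours and lines are 1 SD. Trbj2-7 is the tallest bar in every group and class, and the Trbj2-1 bar of AC484 is 13.9% in the top panel and 9.23% in the bottom one.

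The TRA locus holds far more J genes, each with few CDR3s, on chromosome 14. Among expanded TRA CDR3s 1 of 10 genes tested passed edgeR's test (10%). This was Traj15 (chr14:54204422-54204481, plus strand), whose share ranged from 4.29e-05% to 4.44% (median 0.0212%) with AC484 and from 0.00177% to 17.9% (median 4.48%) with Vehicle. The ranges overlapped at the low end, and the means were 1.56% ± 1.91 (SD, n = 15) and 5.74% ± 5.48 (SD, n = 14), a log2 fold change of -1.64 ± 0.53 (SE; edgeR adjusted p = 0.0234). The test rests on 6.85 expected distinct CDR3s in all AC484 tumours together and 22.5 in all Vehicle tumours. The call was lost under TMM factors, DESeq2, no minimum on the number of CDR3s, deposited depth, the replicate block and the primer set as a factor, and without Vehicle tumour 6 (log2 fold change -1.32, adjusted p = 0.23), with the direction kept in each. By permutation of the shares its adjusted p was 0.065 over all tumours and 0.0042 within primer sets, where the sum was -9.42 points.

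Expanded TRA CDR3s of both groups used Traj7 (chr14:54211470-54211528, plus strand) most. Its share ranged from 8.48% to 43.0% (median 23.0%) with AC484 and from 7.40% to 47.3% (median 19.2%) with Vehicle, without a difference past the threshold (log2 fold change 0.35 ± 0.20 SE, edgeR adjusted p = 0.397). Among rare TRA CDR3s the same gene took from 2.52% to 4.26% (median 3.33%) with AC484 and from 2.31% to 16.3% (median 4.74%) with Vehicle. In AC484 tumours the shares in expanded and rare CDR3s thus did not overlap, a description that was not tested and was chosen after the values were seen.

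Among rare TRA CDR3s no J gene of 23 passed edgeR's test (0%; 0 unadjusted, and 0 by DESeq2 both adjusted and unadjusted). The 3 of lowest p were Traj18, Traj7 and Traj15, with log2 fold changes of -0.48 ± 0.18, -0.34 ± 0.14 and -0.32 ± 0.12 (SE; edgeR adjusted p = 0.811 each). At deposited depth, where the groups differ in reads, 3 genes passed edgeR's test. The minimum number of CDR3s was applied anew there, so these 3 are not a count out of the 23. Traj7 (log2 fold change -1.08 ± 0.22 SE, edgeR adjusted p = 2.3e-05) and Traj12 (-0.70 ± 0.22, adjusted p = 0.0155) were lower with AC484 and Traj9 (0.99 ± 0.28, adjusted p = 0.00757) was higher, against -0.28 for Traj12 and 0.14 for Traj9 at equal depth. The permutation test of shares, added after seeing the data, passed 4 of 23 (17.4%). Traj26 (chr14:54194490-54194549, plus strand) was higher with AC484, at 3.61% to 5.22% (median 4.49%) against 0.000307% to 4.48% (median 3.38%), a difference of 1.38 points (permutation test, adjusted p = 0.0094). Traj18, the J gene of the invariant chain of natural killer T cells, was lower, at 1.86% ± 0.377 (SD, n = 15) against 2.99% ± 1.34 (SD, n = 14; permutation test, adjusted p = 0.021). Traj7 and Traj15 were lower as well (permutation test, adjusted p = 0.042 and 0.047). Each tumour weighed the same in this test, though 1 Vehicle tumour held only 11.7 rare TRA CDR3s. In all Vehicle tumours together the 4 genes had from 41.6 (Traj18) to 70.2 (Traj15) expected distinct CDR3s. Within primer sets none of the 23 passed, and the sums were 1.23 points for Traj26, -1.76 for Traj18, -1.36 for Traj7 and 0.270 for Traj15.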

How the data were processed

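The authors amplified receptor transcripts with a SMARTer kit, ran a MiSeq and built clonotypes with MiXCR, and the submitters' notes name mm10. The deposited table lists, for each tumour, every amino acid CDR3 with its read counts. It also gives, as deposited, each library's concentration in nM and its index primer set. Counts are not normalized, and neither chain, V gene nor nucleotides are listed. Chain and J gene were assigned here from germline J endings (GENCODE M21, GRCm38), the longest shared ending of 4 residues or more deciding. Genes with similar endings, such as Trbj1-3 and Trbj2-4, can be mistaken for each other where the germline ending is trimmed. Of all entries 63.5% were TRB, 34.5% TRA and 2.04% neither, the last left out. The depth ranged from 8080 to 756858 reads per tumour.

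Class numbers at equal depth are hypergeometric expectations, and 0.1%, 1% and 0.5% became 7, 65 and 8 reads. Group means were compared by permutation tests (100000 resamples; exact within sets) with Benjamini-Hochberg adjustment over 20 single values or 80 residue tests. J genes were tested with edgeR's quasi-likelihood test on expected numbers of distinct CDR3s, rounded, with the class total as library size, for genes with at least 100 (rare) or 20 (expanded) CDR3s. edgeR keeps its p from falling under that of Poisson error, which is wide for expected numbers, so a permutation test of shares was added. SEs beside log2 values derive from the F statistic without that bound on p. They can therefore be narrower than the printed p implies. The permutation test of group means was checked on simulated data. edgeR's fit was checked on simulated numbers of rare CDR3s of both chains, not of expanded ones. The measures, classes, lists and tumours were chosen with earlier results of these data known. Named are all TRB J genes, TRA J genes and residues past the threshold (otherwise the 3 of lowest p), the top clone of 5 tumours per group and 3 recurrent rare CDR3s per group; CDR3s of 15 or more residues are described only. Expanded against rare for J genes and residues was added after seeing the data. Alternatives covered depth steps, filters on near-copies (within 1 edit of a CDR3 with 100 times the count) and carry-over (under 1% of that CDR3's highest count in any tumour), classes, tests, primer sets, the replicate block and tumours left out. R 4.3.3 ran edgeR 4.0.16 and, as an alternative, DESeq2 1.42.0, and Python 3.11.15 ran the other steps with SciPy 1.17.1, pandas 2.3.3 and NumPy 2.4.6.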

Additional observations from a re-analysis of the deposited data

How the results depend on the processing

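Primer set and treatment cannot be told apart by a direct comparison, the within-set sums rest on 2 Vehicle tumours, 5 Vehicle tumours held under 20000 TRB reads, and a CDR3 of 1 read may come from reads and not cells. Where the sign of a difference turned, the cause was not tested. TRB CDR3s of 1 read kept direction and call in every setting run, from 324 (scaled and rounded) to 1103 (tumours under 20000 TRB reads left out).

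With counts scaled and rounded, the difference in TRA CDR3s of 1 read was 0.233, that in the share of 0.1% to under 1% 1.37 points, that in rare TRB length -0.0238, that in rare TRA length -0.00881, and expanded minus rare within AC484 was 0.0359 for TRB length and -0.0163 for hydropathy. With both chains brought to 1 total, rare TRA length differed by 0.0822 and passed. Without tumours under 20000 TRB reads, CDR3s of 2 reads to under 0.1% differed by 871 and the share of at least 1% by -14.3 points, both passing, and the share of 0.1% to under 1% by 1.18 points, rare hydropathy by 0.0174 and expanded hydropathy by 0.0588. With carry-over left out, the share of 0.1% to under 1% differed by 0.119 points, rare TRB length by -0.0217, and TRB length within Vehicle by -0.00296. Without CDR3s of 1 deposited read, rare TRB length differed by -0.0760, TRB expanded minus rare length by 0.0385, and within Vehicle length by -0.0569 and charge by 0.00803.

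Weighted by reads, expanded hydropathy differed by 0.0387, expanded charge by 0.0718, expanded minus rare charge by 0.0290, and within AC484 TRA length (0.229) and charge (-0.0333) lost their calls and hydropathy was -0.0363. With expanded meaning at least 1%, expanded TRB length differed by 0.0211, expanded minus rare length by 0.0119, expanded hydropathy by 0.165, length within AC484 by 0.00767 and within Vehicle by -0.00427, and charge within AC484 (-0.107) lost its call. With rare meaning under 0.1% (TRA under 0.5%), rare TRB length differed by -0.0187, rare TRA length by 0.0658 and passed, expanded minus rare hydropathy by -0.0126 and within Vehicle by 0.0172. With the last 4 residues left out of the middle instead, expanded hydropathy differed by 0.00555, hydropathy within AC484 by -0.00415 and charge within Vehicle by 0.00416. Within primer sets rare TRB length summed to -0.0142, expanded TRB length to 0.0507, expanded minus rare TRB length to 0.0649 and rare TRA length to -0.0602. By mean ranks the share of 0.1% to under 1% (-0.146 points) turned direction.

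Of rare J genes, 3 TRAJ genes passed at deposited depth and 4 by shares, and 1 TRBJ gene by shares. Expanded TRAJ calls went from 1 to 0 under TMM, DESeq2, no minimum, deposited depth, the replicate block, primer set as a factor and shares, with Traj15 at -1.51, -1.65, -1.65, -1.53 (block), -1.35 (depth) and -3.70 (set). Expanded against rare, the 1 TRBJ gene in AC484 was lost (0) with expanded meaning at least 1%. In Vehicle 7 of 20 residues passed with carry-over left out and 4 of 20 at 1% or more.

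Replicate numbers are shared by 14 pairs, whose deviations correlated between -0.320 and 0.419 (median -0.0701; 2 of 14 over 0.1), and 2 tumours correlated best with their own number, so the numbers were not taken to pair tumours. With the replicate block TRB CDR3s of 1 read differed by 491 (exact sign-flip permutation test, adjusted p = 0.0024), the share of 0.1% to under 1% by 0.337 points, and Traj15 lost its call.

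With 1 tumour left out at a time, the differences ranged from 88.5 to 121 for TRB CDR3s of 2 reads to under 0.1%, from -12.3 to -9.25 points for the share of at least 1%, from -0.927 to 1.06 points for the share of 0.1% to under 1%, from -0.00915 to 0.0238 for rare TRB length, from 0.0603 to 0.0835 for rare TRA length, from -0.0433 to 0.0135 for expanded hydropathy and from -0.00914 to 0.0429 for expanded minus rare hydropathy. Within AC484 they ranged from 0.169 to 0.248 for TRA length and from -0.0159 to 0.0233 for hydropathy, and within Vehicle from -0.0336 to 0.0184 for hydropathy and from -0.0173 to 0.00971 for charge. Expanded TRAJ genes passing ranged from 0 to 1, and Traj15 from -1.90 to -1.32.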
